A study of Rattus norvegicus with 60 samples.

Results

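Liver messenger RNA of rats given p-toluidine at 60 mg/kg was compared with that of rats given the corn oil vehicle alone. The comparison rests on 10 of the series' 60 arrays, 5 at 60 mg/kg and 5 of vehicle, chosen by their titles and dose labels, and takes in all 31042 non-control probe sets. The animals were male F344/N rats, an inbred strain, aged 5 to 6 weeks at the start and housed as cage pairs. They received p-toluidine or corn oil by gavage on 5 consecutive days (2.5 ml/kg body weight each time), and RNA came from frozen pieces of the left lateral lobe of the liver. All groups, vehicle included, share the gavage and the corn oil. The series also holds p-toluidine at 1, 6, 20 and 120 mg/kg and N,N-dimethyl-p-toluidine (DMPT), which carries 2 methyl groups on the amine nitrogen, at the same 5 doses with its own vehicle arrays. The p-toluidine doses were read from the sample labels, since the protocol spells doses only for DMPT. No label links an array to an animal or cage, and the p-values therefore reflect only how far these samples spread, which may be technical.

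p-Toluidine is an aromatic amine. The liver handles such compounds by oxidising the amine nitrogen or acetylating it, and by joining the products to glutathione, glucuronic acid or sulfate. Electrophiles that react with the sensor protein Keap1 release the transcription factor NRF2, which binds antioxidant response elements in the promoters of conjugating and reducing enzymes. In rat liver the pi-class glutathione S-transferase Gstp1 is nearly silent in normal hepatocytes and is the classical marker of chemically altered foci.

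Levels are log2 values, so a difference of 1 is a change of 2-fold, and differences are given ± standard error of the limma fit. Calls were made where limma's Benjamini-Hochberg adjusted p, over all probe sets, did not exceed 0.05, and only such changes are described as having risen or fallen. Each gene is represented by 1 probe set. Array medians ran from 2.73 to 2.78 over these 10 arrays. The gauge of RNA quality, the 3′ minus 5′ signal of the beta-actin control probe sets, was 1.66 ± 0.23 at 60 mg/kg and 1.80 ± 0.15 in vehicle (SD, n = 5 each; two-sided exact permutation p = 0.246). One vehicle array stood apart: vehicle replicate 5 was separated from its 4 group members, by Dixon's criterion, at 605 probe sets, against 208 to 399 for the other vehicle arrays and 298 to 407 for the arrays at 60 mg/kg. Values without it are given beside some of the results that it moved. The calls of Gstm2, Fas, Acot2, Itih4, Cyb5a, Bub1b and Tk1 also ended without it. Below, these are marked only as lost without single arrays. The 13 hepatocyte markers measured had a median level of 12.1, and none lay below the median of all probe sets, as the labelled tissue requires.

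At 60 mg/kg, 1400 probe sets were called, which is 4.51% of those tested, 657 higher and 743 lower. They included 942 of 14217 named genes (6.63%), 430 higher (3.02%) and 512 lower (3.6%), while the median change over all genes was −0.0067. The gene lists below held 142 called genes, of which 88 were called with each of the 10 compared arrays left out in turn and 54 lost the call without at least 1 of them. Named genes of the second kind are marked where they occur, with the highest adjusted p (limma) reached when 1 array was left out. A change of at least 2-fold was seen for 73 called probe sets, 34 higher and 39 lower. The groups did not overlap in 839 of the 1400 called probe sets (59.9%), against 4.37% of all probe sets. The change plotted against level shows Gstp1 alone above a change of 3 and a small number of genes below −2.

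**Figure D1:**
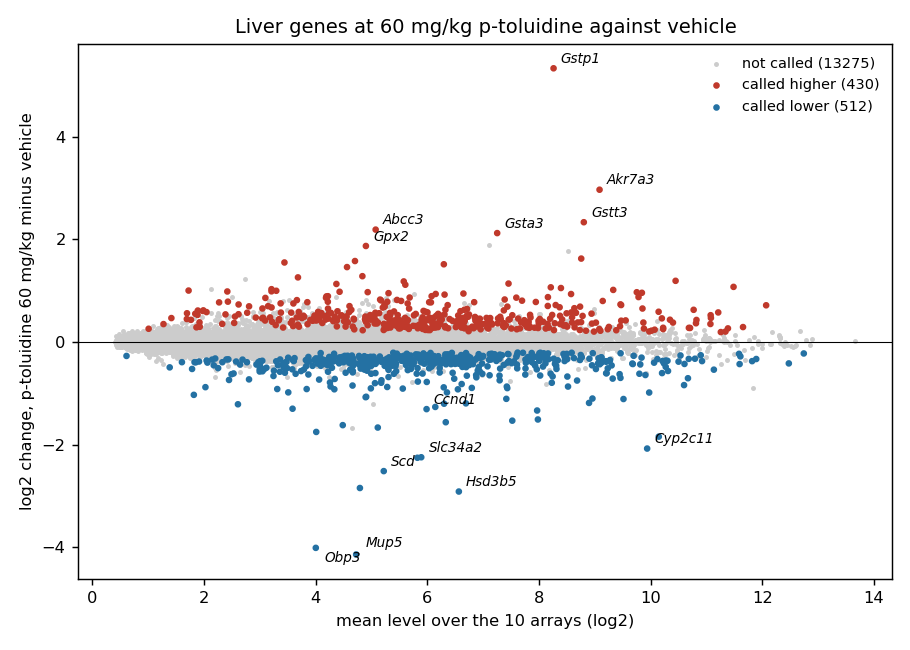
Each point is 1 named gene; the horizontal axis gives its mean level over the 10 arrays (log2) and the vertical axis its log2 change, p-toluidine 60 mg/kg minus vehicle. Red marks the 430 genes called higher and blue the 512 called lower; Gstp1 lies at 5.34, Akr7a3 at 2.97 and Mup5 at −4.14.

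The largest rises by log2 change were those of Gstp1 and of the aflatoxin aldehyde reductase Akr7a3. Among the 15 largest rises, 3 promoters held the core letters of the antioxidant response element, TGACNNNGC, searched on both strands in the 300 bases from 250 before to 50 after each gene's start in RefSeq (assembly GRCr8). They are shown because the genes rose together, with the matched letters in capitals. Gstp1 at chr1:210769656-210769955 (- strand) matched 61 to 53 bases before the start, Gsta3 at chr9:31154739-31155038 (+ strand) matched 17 to 9 bases before it, and Gpx2 at chr6:101229984-101230283 (- strand) matched 13 to 5 bases before it on the opposite strand. All are written 5′ to 3′ on the gene's strand.
Gstp1: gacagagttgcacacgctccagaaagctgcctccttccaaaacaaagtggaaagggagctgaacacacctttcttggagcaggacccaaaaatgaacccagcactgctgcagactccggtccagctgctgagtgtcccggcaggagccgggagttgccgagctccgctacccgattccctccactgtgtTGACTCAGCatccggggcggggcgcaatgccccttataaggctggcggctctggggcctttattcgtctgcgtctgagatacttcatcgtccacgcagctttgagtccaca
Gsta3: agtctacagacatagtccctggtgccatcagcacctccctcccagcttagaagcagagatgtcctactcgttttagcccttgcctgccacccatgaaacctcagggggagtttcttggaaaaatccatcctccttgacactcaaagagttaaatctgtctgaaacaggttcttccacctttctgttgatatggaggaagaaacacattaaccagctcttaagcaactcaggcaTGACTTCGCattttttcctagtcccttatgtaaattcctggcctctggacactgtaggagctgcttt
Gpx2: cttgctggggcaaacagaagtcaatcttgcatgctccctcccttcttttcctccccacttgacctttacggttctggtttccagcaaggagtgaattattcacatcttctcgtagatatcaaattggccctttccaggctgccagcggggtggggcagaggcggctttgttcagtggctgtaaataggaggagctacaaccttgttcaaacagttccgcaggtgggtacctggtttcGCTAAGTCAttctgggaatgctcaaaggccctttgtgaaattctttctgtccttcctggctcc
The core was present in 3342 of 27457 RefSeq promoters (12.2%), in 3 of the 11 largest rises with a promoter in the table, and in 4 of the 13 largest falls with one (Mup5, Scd, Serpinb9b and Slc6a6). Among the called NRF2 targets, higher or lower, it was present in 5 of 15. Uncalled NRF2 targets were not counted, and whether the core goes with the rise was not tested. A match is a string of letters and not a measured site.

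Gstp1 read 11.47, 10.40, 10.63, 11.04 and 11.12 in the 5 arrays at 60 mg/kg, against 5.08, 5.91, 5.32, 5.90 and 5.77 in the vehicle arrays. The lowest treated array lay far above the highest vehicle array. The change was 5.34 ± 0.32, or 40.4-fold (limma, adjusted p = 1.32e-12). Akr7a3 read 11.40, 10.08, 9.56, 10.39 and 11.43 at 60 mg/kg, against 7.32, 7.52, 7.74, 7.70 and 7.73 in vehicle, without overlap and with a wider spread among the treated arrays. It rose by 2.97 ± 0.23 (7.83-fold, adjusted p = 7.07e-10). Gstt3, a theta-class glutathione S-transferase, read 10.07, 9.43, 10.15, 10.11 and 10.10 at 60 mg/kg, against 7.72, 7.46, 7.40, 7.89 and 7.73 in vehicle. Replicate 2 lay below a narrow band formed by the other treated arrays, still clear of the vehicle arrays, and the change was 2.34 ± 0.17 (5.05-fold). Abcc3, which exports conjugates from the hepatocyte into blood, read 6.55, 5.67, 6.22, 6.02 and 6.40 at 60 mg/kg, against 4.04, 3.18, 3.51, 3.94 and 5.24 in vehicle. The groups did not overlap, vehicle replicate 5 being the highest of its group, and the change was 2.19 ± 0.31 (4.57-fold, adjusted p = 2.83e-05).

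The other large rises among NRF2 targets were those of Gsta3, an alpha-class glutathione S-transferase (2.12 ± 0.29), of Gpx2, a glutathione peroxidase (1.87 ± 0.19), of Ptgr1, which reduces reactive enones (1.63 ± 0.18), and of the quinone reductase Nqo1 (1.52 ± 0.19). Nqo1 read 7.87, 6.59, 6.45, 6.70 and 7.66 at 60 mg/kg, against 5.64, 5.44, 5.54, 5.49 and 5.59 in vehicle. Replicates 1 and 5 lay about 1 unit above the other treated arrays, and every treated array lay above every vehicle array. In all, 17 of 31 measured NRF2 targets rose and 1 fell, with a median change of 0.52. Also among the risers were Gstm1 (1.08), the aldehyde oxidase Aox1 (1.02), glutathione reductase Gsr (0.95), the epoxide hydrolase Ephx1 (0.88), the glutathione synthesis subunit Gclm (0.48) and thioredoxin Txn1 (0.44). The member that fell was Txnrd1, the thioredoxin reductase (−0.34, adjusted p = 0.005). Several textbook members were not called: the heme oxygenase Hmox1 changed by 0.13, the glutathione synthesis subunit Gclc by −0.17 and the sulfiredoxin Srxn1 by −0.21. The aldo-keto reductase Akr1b8 changed by 0.82 ± 0.26 (adjusted p = 0.064), its arrays at 60 mg/kg running from 3.33 to 5.04 and those of vehicle from 2.95 to 3.33.

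Of 19 measured glutathione S-transferases, which overlap with the NRF2 list, 12 rose and none fell, with a median change of 0.47. By class, the risers were the alpha-class Gsta1, Gsta3 and Gsta4, the mu-class Gstm1, Gstm2, Gstm3 and Gstm5, the pi-class Gstp1, the theta-class Gstt1 and Gstt3, the omega-class Gsto1 and the microsomal Mgst2. Near-identical members of these families can bind each other's probes. Gstm1 read 12.11, 11.75, 12.08, 12.01 and 12.19 at 60 mg/kg, against 10.70, 11.05, 10.83, 10.98 and 11.19 in vehicle. It stood well apart although it was already among the bright probe sets, and rose by 1.08 ± 0.09 (2.11-fold, adjusted p = 7.01e-09). The number of transferases called was 8 without vehicle replicate 3. The calls of Gstm2, Gstm3, Gstm5 and Gsto1 were lost without some single arrays, with adjusted p of up to 0.15, 0.0957, 0.0895 and 0.054.

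**Figure D2:**
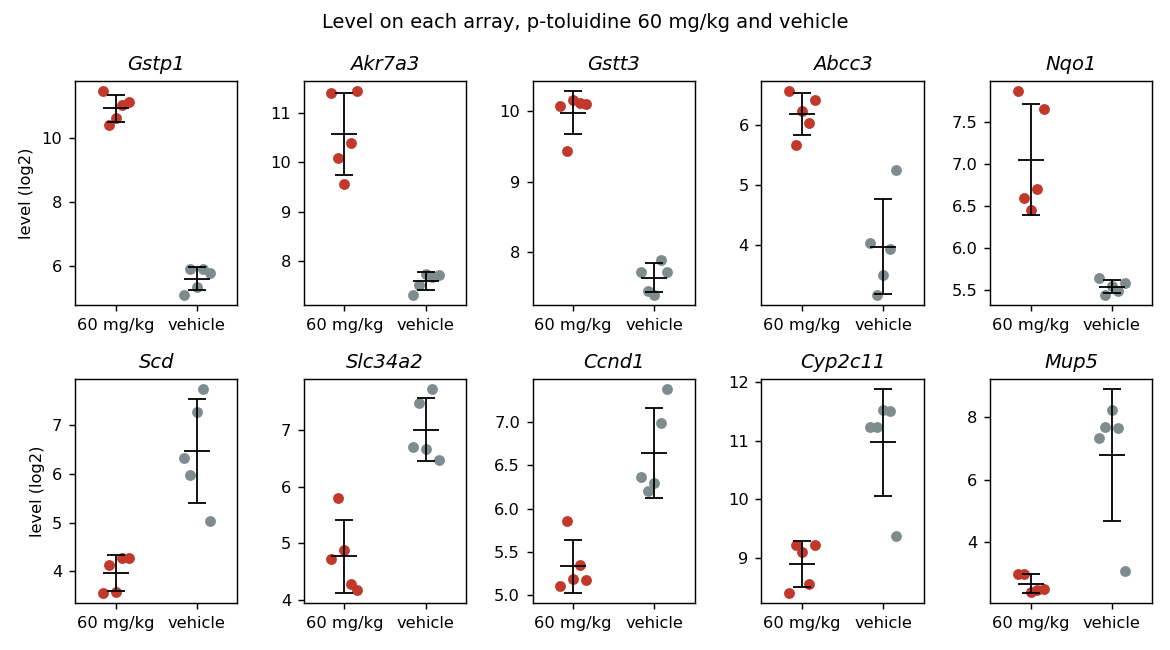
Each panel gives the log2 level of 1 gene in the 5 arrays at 60 mg/kg (red, left) and the 5 vehicle arrays (grey, right); the black marks are the mean ± SD. Gstp1 runs from 10.40 to 11.47 at 60 mg/kg and from 5.08 to 5.91 in vehicle, and the low grey point in the panels of Cyp2c11 and Mup5 is vehicle replicate 5.

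Other enzymes of drug metabolism changed in both directions. Of 7 AhR targets, Cyp1a1 and Nqo1 rose. Cyp1a1, the classical marker of the aryl hydrocarbon receptor, read 4.96, 3.19, 3.58, 4.26 and 5.10 at 60 mg/kg, against 2.05, 2.09, 2.24, 2.73 and 4.24 in vehicle. The groups overlapped through vehicle replicate 5, and the call (1.55 ± 0.44, adjusted p = 0.0339) was lost without 7 of the 10 single arrays (adjusted p up to 0.109). When vehicle replicate 5 was the one left out, the change was 1.94 (adjusted p = 0.00456). Its relative Cyp1a2 changed by −0.30 ± 0.13 (adjusted p = 0.216). Among 14 targets of the drug sensors CAR and PXR, the aldehyde dehydrogenase Aldh1a1 (1.19 ± 0.12), the glucuronosyltransferase Ugt2b1 (0.96 ± 0.11), the efflux pump Abcb1a (0.82 ± 0.17) and Cyp3a18 (0.46) rose, and Cyp3a2 (−0.37) and Cyp3a9 (−1.21 ± 0.31) fell. The calls of Cyp3a2 and Cyp3a9 were lost without 1 array each (adjusted p 0.054 and 0.0685). The list's median was 0.03, near the median of all genes.

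Of 20 measured glucuronosyltransferases and sulfotransferases, 5 rose (Ugt2b1, Ugt2a1, Ugt2b10, Ugt2b35 and Sult2a6) and 2 fell, both sulfotransferases. These were the estrogen sulfotransferase Sult1e1 (−1.84 ± 0.51) and Sult1c3 (−1.11 ± 0.21). Sult2a6 and Ugt2b35 lost their calls without some single arrays (adjusted p up to 0.0646 and 0.0537). Of 17 enzymes that oxidise, acetylate or methylate amines, the flavin monooxygenases Fmo5 (1.07 ± 0.20, adjusted p = 0.00116) and Fmo1 (0.58 ± 0.10) and the electron carrier Cyb5a (0.20, with an adjusted p of up to 0.16 when 1 array was left out) rose, and the methyltransferase Nnmt fell (−0.60 ± 0.10). Fmo5 read 8.80, 8.37, 8.78, 9.11 and 8.67 at 60 mg/kg, against 7.46, 7.27, 7.65, 7.79 and 8.23 in vehicle, without overlap. The arylamine acetyltransferases Nat1 and Nat2 changed by −0.03 and 0.10 and were not called.

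Among the rises outside detoxification, Isyna1, which makes inositol phosphate from glucose 6-phosphate, rose by 1.58 ± 0.18 (2.99-fold). The lipid droplet protein Cidea rose by 1.46 ± 0.26, the cell adhesion molecule Epcam by 1.28 ± 0.12, the glycerol channel Aqp7 by 1.26 ± 0.20, and the retinol-oxidising alcohol dehydrogenase Adh7 by 1.18 ± 0.16. Epcam read 5.59, 5.27, 5.34, 5.71 and 5.48 at 60 mg/kg, against 4.18, 4.30, 3.60, 4.53 and 4.38 in vehicle. Epcam marks bile duct and progenitor cells. Of the 14 measured cholangiocyte markers Epcam and Anxa4 (0.45 ± 0.07) rose, while the defining keratins Krt7 and Krt19 lay below the median level of all probe sets. The list's summed level (levels taken out of log2 and added) ran from 699.4 to 950.1 at 60 mg/kg and from 701.7 to 863.9 in vehicle.

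Genes of sterol and fatty acid metabolism changed as well. Of 20 measured genes of cholesterol synthesis and uptake, 9 rose and none fell, with a median change of 0.46. They span the pathway from the thiolase Acat2 (0.93 ± 0.17, adjusted p = 0.00102) over the squalene enzymes Fdft1 (0.78 ± 0.14) and Sqle (0.78 ± 0.21) to the lanosterol synthase Lss (0.78 ± 0.14) and the later Dhcr7 (0.46). Fdft1 read 8.52, 8.27, 8.34, 8.30 and 8.25 at 60 mg/kg, against 7.89, 7.29, 7.26, 7.32 and 8.01 in vehicle. The treated arrays agreed closely and did not overlap with vehicle, in which replicates 1 and 5 were the highest. The count depended on single arrays: it was 13 without vehicle replicate 5, and 4 without 60 mg/kg replicate 1. The calls of Sqle and Dhcr7 were lost without some single arrays, with adjusted p of up to 0.102 and 0.112.

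The fatty acid list split, with 5 of 23 members higher and 6 lower. Scd, the stearoyl-CoA desaturase that makes monounsaturated fatty acids, read 3.56, 4.13, 3.58, 4.28 and 4.27 at 60 mg/kg, against 6.33, 5.99, 7.28, 7.75 and 5.04 in vehicle. Every treated array lay below every vehicle array, and the fall was −2.51 ± 0.33 (5.71-fold lower, adjusted p = 1.13e-05). Its relative Scd2 fell by 0.57 and the pyruvate kinase Pklr changed by −0.69 ± 0.09, whereas the polyunsaturated desaturases Fads1 (0.63) and Fads2 (0.65), the acetyl-CoA synthetase Acss2 (0.81 ± 0.16) and the lipase Pnpla3 (1.03 ± 0.27) rose. Pnpla3's call was lost without 3 single arrays, among them 60 mg/kg replicate 2, its high array (adjusted p = 0.0761), and vehicle replicate 5 (0.94, adjusted p = 0.0554), and its other 2 probe sets, at 0.61 and 0.19, were not called. The central enzymes Fasn and Acaca changed by −0.10 and −0.07 and were not called.

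Of 33 measured targets of the fatty acid sensor PPARA, 7 rose and 1 fell. The risers were Aqp7, the peroxisomal enzyme Ehhadh (0.73 ± 0.15), the fatty acid transporter Cd36 (0.72 ± 0.19), the mitochondrial enzymes Acaa2 (0.47) and Decr1 (0.42), Crat (0.41) and Acot2 (0.38). Cyp4a3 fell (−0.40), and the classical markers Cyp4a1 and Acot1 changed by −0.20 and 0.88 without a call. The call of Cd36 was lost without 2 single arrays, among them 60 mg/kg replicate 1, its high array (adjusted p = 0.0838), and those of Crat and Acot2 without some single arrays (adjusted p up to 0.125 and 0.128). Acot1 read 4.93 in 60 mg/kg replicate 1 and from 2.09 to 3.09 in the other 4.

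**Figure D3:**
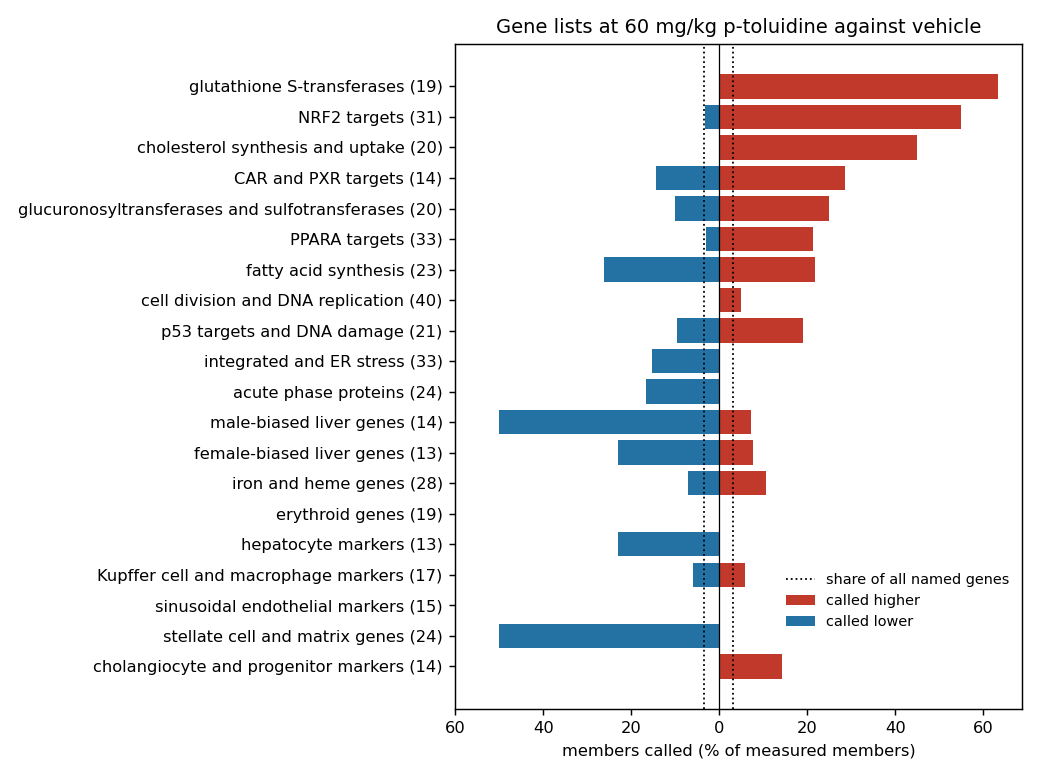
Bars give the share of each list's measured members (number in brackets) called higher (red, right) or lower (blue, left) at 60 mg/kg against vehicle, in percent; dotted lines mark the shares of all named genes, 3.02% higher and 3.6% lower. Only a selection of the 40 lists is drawn. Lists share members, and 12 of 19 glutathione S-transferases rose whereas 12 of 24 stellate cell and matrix genes fell.

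The male-biased liver genes, which growth hormone pulses keep high in males, gave the deepest falls. Of 14 measured, 7 fell and 1 (Cyp3a18) rose, with a median change of −0.45. Mup5, a urinary lipocalin, read 2.98, 2.98, 2.38, 2.46 and 2.49 at 60 mg/kg, against 7.32, 7.70, 8.24, 7.66 and 3.05 in vehicle. The groups did not overlap, but vehicle replicate 5 lay just above the treated arrays and not with its own group. The change was −4.14 ± 0.92 (adjusted p = 0.00568) with that array and −5.08 without it (adjusted p = 0.000304). The other probe sets of Mup5, both dim, were not called (−0.12 and −0.70), and its probes can bind related urinary proteins. At 60 mg/kg Mup5 and Obp3 read near or below the median of all probe sets, 2.76, so no fold is given for them.

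Cyp2c11, a P450 typical of the male rat's liver, read 8.41, 9.23, 9.11, 8.55 and 9.22 at 60 mg/kg, against 11.23, 11.23, 11.54, 11.52 and 9.37 in vehicle. Again only vehicle replicate 5 came near the treated range. The change was −2.07 ± 0.39 (4.21-fold lower, adjusted p = 0.000996), and −2.48 without vehicle replicate 5. The pheromone carrier Obp3 (−4.01 ± 1.05, adjusted p = 0.021), the steroid reductase Hsd3b5 (−2.91 ± 0.84, adjusted p = 0.0402) and Sult1e1 (−1.84 ± 0.51, adjusted p = 0.0303) fell with overlapping groups. Without vehicle replicate 5 they changed by −5.01, −3.57 and −2.22, with adjusted p of 0.002, 0.00899 and 0.00784 (limma). The calls of these 3 genes were lost when some single arrays other than vehicle replicate 5 were left out, with an adjusted p of up to 0.0742 for Obp3, 0.128 for Hsd3b5 and 0.13 for Sult1e1. Dhrs7l1, a short-chain dehydrogenase outside the list, fell by 2.84, also with overlapping groups, and changed by −3.47 without vehicle replicate 5; its call was lost without 6 other single arrays (adjusted p up to 0.0951). The number of male-biased genes called lower was 4 without vehicle replicate 2.

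The treated arrays also differed among themselves for these genes. Hsd3b5 read 6.77, 6.98, 3.50, 3.59 and 4.72 at 60 mg/kg, against 7.97, 8.87, 9.23, 8.65 and 5.39 in vehicle. Cyp2c12, the main female-specific P450, read 8.46, 7.45, 10.42, 10.75 and 9.92 at 60 mg/kg, against 7.03, 6.71, 7.92, 7.37 and 9.13 in vehicle. Replicates 3, 4 and 5, low for Hsd3b5, were the 3 highest for Cyp2c12, and in vehicle the highest was replicate 5. Cyp2c12 was not called (1.77 ± 0.61, adjusted p = 0.0975) and was without vehicle replicate 5 (2.14, adjusted p = 0.0412). The female-biased list, with 13 members measured, held 1 rise (Fmo1) and 3 falls (Cyp3a9, Hao2 and A1bg). The call of A1bg was lost without 6 of the 10 single arrays (adjusted p up to 0.185). The growth hormone-driven hormone Igf1 fell by 0.54 (adjusted p = 0.00803), while its other 2 probe sets, at −0.49 and −0.37, were not called.

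Outside that list, Serpinb9b, a serine protease inhibitor, fell by 2.25 and the sodium phosphate transporter Slc34a2 changed by −2.24 ± 0.26 (4.74-fold lower, adjusted p = 1.37e-06). Slc34a2 read 4.73, 5.80, 4.88, 4.27 and 4.17 at 60 mg/kg, against 6.71, 7.49, 6.67, 7.74 and 6.48 in vehicle, without overlap. The taurine transporter Slc6a6 (−1.62 ± 0.29), the activin subunit Inhba (−1.56 ± 0.21), the kinase Sgk1 (−1.53 ± 0.23) and the ornithine aminotransferase Oat (−1.51 ± 0.25) fell as well, each without overlap. The cadherin Cdh17 (−1.75 ± 0.48) and Stac3 (−1.67 ± 0.49) fell. Their calls were lost without 5 and 7 of the 10 single arrays (limma, adjusted p up to 0.0927 and 0.183). The amino acid enzymes Aass (−0.42), Asl (−0.41), Got1 (−0.37) and Nags (−0.29) fell beside Oat, and Gpt (0.87 ± 0.13) and Gcdh (0.36) rose, out of 31 measured. The calls of Aass, Nags and Gcdh were lost without some single arrays (adjusted p up to 0.0504, 0.0598 and 0.0895).

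Genes of cell division were largely not called at this dose. Of 40 measured, 2 rose (Bub1b, 0.57, and Tk1, 0.36) and none fell, although the median change was 0.38. Both calls were lost without some single arrays (adjusted p up to 0.152 and 0.134). Mki67, the proliferation marker, read 5.94, 5.85, 3.76, 5.67 and 5.36 at 60 mg/kg, against 5.34, 4.58, 5.58, 3.96 and 3.02 in vehicle. The groups overlapped, replicate 3 being the low array at 60 mg/kg. Its change of 0.82 ± 0.38 was not called (adjusted p = 0.274), and without that array 9 members of the list were called higher, against 0 without vehicle replicate 5. Ccnd1, the G1 cyclin, read 5.11, 5.86, 5.19, 5.34 and 5.18 at 60 mg/kg, against 6.36, 6.20, 6.29, 6.98 and 7.38 in vehicle. All treated arrays were lower, the change was −1.31 ± 0.17 (2.47-fold lower, adjusted p = 8.67e-06), and its other 2 probe sets fell too (−0.98 and −1.03).

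Of 21 p53 targets, Ephx1, Sesn1 (0.57), Fas (0.44) and Ddb2 (0.42) rose and Phlda3 (−1.07 ± 0.17) and Plk2 (−0.61 ± 0.13) fell. The call of Fas was lost without 7 of the 10 single arrays (adjusted p up to 0.144). The best known targets Cdkn1a and Mdm2 changed by 0.05 and 0.01 and were not called. Of 33 genes of the integrated and endoplasmic reticulum stress responses, 5 fell and none rose: the chaperones and folding factors Creld2, Pdia4, Hspa5 and Dnajc3, and Sel1l, an adaptor of the degradation ligase of the endoplasmic reticulum. Creld2 changed by −0.66 ± 0.15 and the main chaperone Hspa5 by −0.36, and the count was 2 without 60 mg/kg replicate 3. The calls of Hspa5, Pdia4 and Sel1l were lost without some single arrays (adjusted p up to 0.12, 0.141 and 0.111). Atf3, a stress-induced transcription factor, read 6.20 in 60 mg/kg replicate 4 and from 1.98 to 3.36 in the other 4, against 1.62 to 2.70 in vehicle, and was not called. In the same array the early response genes Klf6 (5.91) and Ccn1 (5.55) and the chemokine Ccl2 (4.33) were the highest of the group. Klf6 rose (0.89, limma adjusted p = 0.0136) and stayed called without that array (adjusted p = 0.0457). Its other probe sets changed by 1.04, called, and 0.58, not called. Ccn1 and Ccl2 were not called.

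Of 24 acute phase proteins, Apcs (−0.70 ± 0.11), Hpx, Itih4 and Serpina1 fell and none rose, the call of Itih4 being lost without some single arrays (adjusted p up to 0.0993). Of 28 iron and heme genes, the transferrin receptor Tfrc (0.69 ± 0.19), Aco1 (0.41 ± 0.07) and Hfe (0.37 ± 0.09) rose and Hpx and the heme enzyme Cpox (−0.36) fell. The iron hormone Hamp changed by −0.81 ± 0.55 with overlapping groups (adjusted p = 0.534). Tfrc's call was lost without 7 of the 10 single arrays (adjusted p up to 0.0823), vehicle replicate 5 among them (0.66, adjusted p = 0.0642), and its second probe set, also at 0.66, was not called. Hfe and Cpox lost their calls without 60 mg/kg replicate 3 (adjusted p 0.0527 and 0.055).

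Lists of other liver cells moved less, with 1 exception. Of 24 stellate cell and matrix genes, 12 fell and none rose, with a median of −0.34, among them the receptor Pdgfrb (−0.62 ± 0.11), the filament protein Vim (−0.48 ± 0.09), the smooth muscle actin Acta2 (−0.46 ± 0.13) and the retinol esterifying enzyme Lrat (−0.46). Pdgfrb read 3.03, 3.28, 3.41, 3.28 and 3.66 at 60 mg/kg, against 3.82, 4.09, 3.72, 4.14 and 3.99 in vehicle, without overlap, but its other 2 dim probe sets changed by less than 0.01. The list's summed level ran from 1294 to 1637 at 60 mg/kg and from 1674 to 1836 in vehicle. This sum weighs the brightest members most, since their levels ran from 2.87 to 9.27 with a median of 4.93. In bulk tissue, fewer cells of a type and less RNA per cell cannot be told apart. The number called was 6 without vehicle replicate 5 and 5 without vehicle replicate 4. Acta2's call was lost without 6 of the 10 single arrays (limma, adjusted p up to 0.0976), vehicle replicate 5 among them (−0.44, adjusted p = 0.0725). Lrat's was lost without 4 of the 10 (adjusted p up to 0.0985).

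Of 15 sinusoidal endothelial, 20 lymphocyte, 8 neutrophil and 19 erythroid genes, limma called 0 in either direction. In that order, 3, 2, 1 and 3 of them had an unadjusted p below 0.05, against 4901 of all 31042 probe sets. Among 17 macrophage markers Cd14 rose (0.69 ± 0.20) and Lyz2 fell (−0.65 ± 0.12), 5.88% of the list each way; the call of Cd14 was lost without 7 of the 10 single arrays (adjusted p up to 0.138). Of 13 hepatocyte markers Apoc3 (−0.42 ± 0.07), Hnf4a (−0.45 ± 0.12) and Serpina1 (−0.22 ± 0.05) fell, and the list's summed level ran from 59430 to 62710 at 60 mg/kg and from 62770 to 65330 in vehicle. Hnf4a's call was lost without 5 of the 10 single arrays (adjusted p up to 0.114), vehicle replicate 5 among them (−0.42, adjusted p = 0.063), and its other 2 probe sets, both at 0.04, were not called. Of 15 pancreatic acinar markers, included as a check for carried-over tissue, 13 lay below the median level of all probe sets and Cela1 fell (−0.43 ± 0.10). Their summed level ran from 131 to 159.1 at 60 mg/kg and from 167.7 to 191.6 in vehicle.

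The neighbouring doses place these changes in a series, but they share the vehicle arrays with the comparison above, so each dose's own values are given side by side. With limma no probe set was called at 1 or 6 mg/kg, where 1992 and 2557 had an unadjusted p below 0.05 (1552.1 by chance). At 20 mg/kg 244 (0.786%) were called, with 155 named genes (1.09%), 0.633% of all named genes higher and 0.457% lower. At 120 mg/kg 3337 (10.7%) were called, with 2101 named genes (14.8%), 7.84% higher and 6.94% lower. From the lowest dose to the highest, Gstp1 changed by 0.00, 0.12, 2.36, 5.34 and 6.41. In the same order Akr7a3 changed by 0.46, 0.92, 1.61, 2.97 and 4.22. Over the 3 highest doses, upward, Scd changed by −2.50, −2.51 and −2.45, each called, and Cyp2c11 by −0.48, −2.07 and −3.61, the first of these not called.

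**Figure D4:**
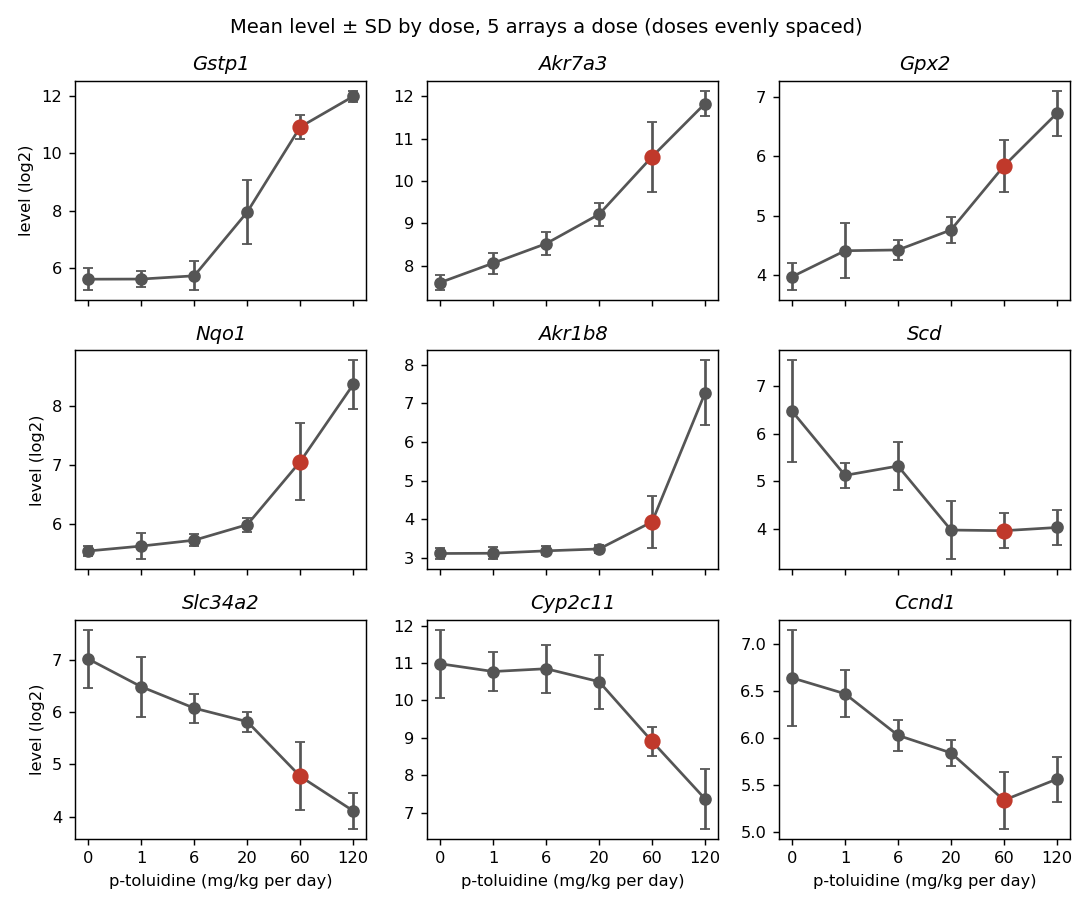
Each panel gives 1 gene's mean log2 level ± SD over 5 arrays at 0 (vehicle), 1, 6, 20, 60 and 120 mg/kg p-toluidine, with the 60 mg/kg group in red and doses evenly spaced. Gstp1 reaches 10.93 at 60 mg/kg. Akr1b8 lies at 3.93 there, 0.82 above vehicle and not called, and 4.15 above vehicle at 120 mg/kg.

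The step from 20 to 60 mg/kg was tested directly. It held 33 called probe sets (0.106%), 18 higher and 15 lower at 60 mg/kg, with 25 named genes (0.176%; 0.106% higher, 0.0703% lower). The count was 10 without 60 mg/kg replicate 1. The largest rise of the step was that of Gstp1 (2.98 ± 0.32), followed by Akr7a3 (1.36 ± 0.23), Gpx2 (1.08 ± 0.19), Nqo1 (1.07 ± 0.19) and Ptgr1 (1.06 ± 0.18). The thyroid hormone-binding protein Crym (−0.71 ± 0.14), the chemokine Cxcl12 (−0.67 ± 0.13), the growth factor carrier Igfbp3 (−0.64 ± 0.11), the complement protease C1r (−0.60 ± 0.10) and Lrmda (−0.59 ± 0.11) were the 5 largest falls of the step. When single arrays were left out, the step's calls of Gpx2, Nqo1, Crym, Cxcl12 and Lrmda were lost in 1, 2, 5, 7 and 3 of 10 fits, with adjusted p of up to 0.0594, 0.0582, 0.0956, 0.109 and 0.0762. Cxcl12 read 8.30, 8.73, 8.56, 8.02 and 7.93 at 60 mg/kg, against 9.31, 9.05, 8.81, 9.13 and 8.99 in vehicle, and at 20 mg/kg it had changed from vehicle by −0.08.

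The step from 60 to 120 mg/kg held 260 called probe sets (0.838%), 149 higher and 111 lower at 120 mg/kg, with 190 named genes (1.34%; 0.76% higher, 0.577% lower). The largest rises were those of Akr1b8 (3.33 ± 0.26), the carbonic anhydrase Car2 (2.34 ± 0.18) and the guanylate cyclase Gucy2c (1.46 ± 0.14), none of which had been called at 60 mg/kg against vehicle. Nqo1 (1.31 ± 0.19) and Akr7a3 (1.25 ± 0.23) rose further. The methyltransferase Inmt (−2.24 ± 0.38), the clock gene Npas2 (−1.60 ± 0.25), Cyp2c11 (−1.54 ± 0.39), Sez6 (−1.35 ± 0.24) and Car3 (−1.07 ± 0.23) had the largest falls. The calls of Cyp2c11 and Car3 in this step were lost in 7 and 3 of 10 fits with 1 array left out (adjusted p up to 0.153 and 0.0769). Of the 40 cell division genes, 29 rose at 120 mg/kg against vehicle, compared with 2 at 60 mg/kg. Of all named genes, 7.84% were called higher at 120 mg/kg and 3.02% at 60 mg/kg. The list's median change was 0.75 at 120 mg/kg and already 0.38 at 60 mg/kg. Whether the difference between the doses is larger than the replicate spread was not tested for the list.

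DMPT, the analog with 2 methyl groups on the nitrogen, was given at the same 60 mg/kg, with arrays that share none with p-toluidine. This single pair of compounds was compared over all probe sets, as the p-toluidine response minus the DMPT response. Array medians differed between the chemicals' arrays as if each set had been normalized on its own, so only changes against the own vehicle were compared. No probe set of the response difference was called (0%, limma over 60 arrays, lowest adjusted p 0.857), by limma with array weights and with a trended, robust prior alike, and 1488 had an unadjusted p below 0.05, against 1552.1 by chance. On its own, DMPT at 60 mg/kg gave 1613 calls (5.2%), 600 higher and 1013 lower, with 1040 named genes (7.32%; 2.4% higher, 4.92% lower).

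Of the 1400 probe sets called for p-toluidine, 625 were also called for DMPT, all in the same direction, which is 44.6% of the p-toluidine calls and 38.7% of the DMPT calls. The sign was shared by 97.6% of the p-toluidine calls and by 64.7% of all probe sets. Gstp1 changed by 5.34 with p-toluidine and 5.48 with DMPT, a difference of −0.15 (95% interval −1.13 to 0.84). Akr7a3 changed by 2.97 with p-toluidine and 2.35 with DMPT (difference 0.62, −0.06 to 1.30), and Scd by −2.51 and −2.28 (difference −0.24, −1.62 to 1.14). Cyp2c11 changed by −2.07 with p-toluidine and −1.15 with DMPT (difference −0.92, −2.08 to 0.24) and Slc34a2 by −2.24 and −1.17 (difference −1.07, −1.92 to −0.22, adjusted p = 0.995). Hsd3b5 had a wide interval, −4.68 to 0.27, around a difference of −2.21. These intervals, which are not adjusted for the number of probe sets, leave room for differences of 2-fold in many genes, so the absence of calls does not show that the compounds act alike.

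**Figure D5:**
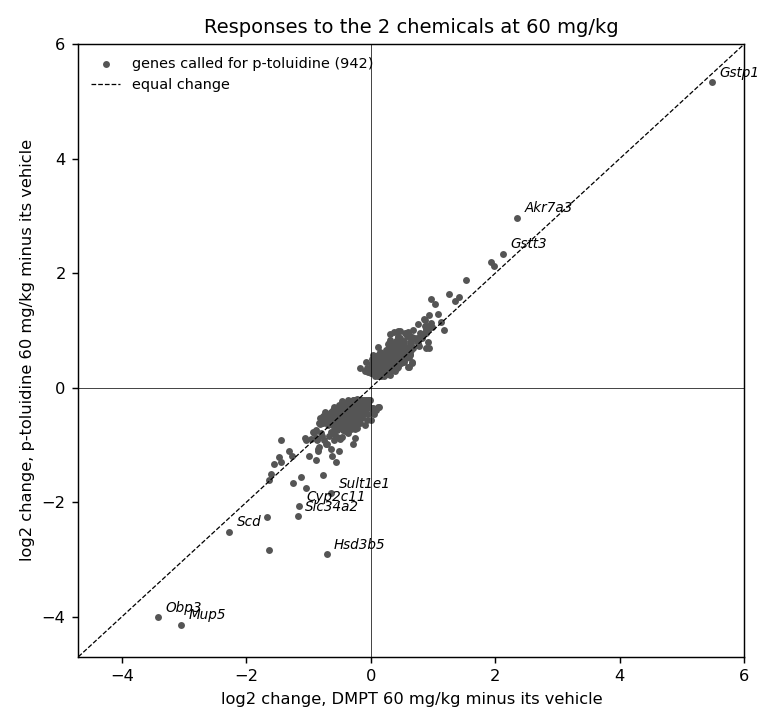
Each point is 1 of the 942 genes called for p-toluidine; the vertical axis is its log2 change at 60 mg/kg p-toluidine and the horizontal axis its log2 change at 60 mg/kg DMPT, each against its own vehicle. The dashed line marks equal change; genes were chosen by the p-toluidine calls, which favours larger values on that axis, and Gstp1 lies at 5.34 and 5.48.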

How the data were processed

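Liver RNA was hybridised to one-colour Affymetrix 3′ arrays. The deposited values were taken as log2 expression per probe set: the authors used RMA, per the submitters' processing notes, with settings not given in the sources used here, and the log2 scale was inferred from that name and the values' range. No read depth stands behind such values, and precision is set by how many arrays there are. The table held 31099 probe sets, of which 57 controls were left out. Exactly 1 symbol was attached to 20826 probe sets (20758 matched by gene ID to RefSeq GRCr8, used for names and promoters), several to 436 and none to 9780. Where several 1-symbol probe sets shared a gene, the one brightest on average across the 30 p-toluidine arrays stood for it.

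The 30 p-toluidine arrays were fitted with 6 group means in limma 3.58.1 (R 4.3.3; lmFit, contrasts, eBayes, Benjamini-Hochberg over 31042 probe sets). The response difference used all 60 arrays and 12 group means. Errors of group means are SD, and intervals are 95%. Figures were drawn with matplotlib 3.10.9 in Python 3.11.15. The fits were tested on simulated data.

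Named genes are the 15 largest called rises and falls, up to 4 members of each of 40 lists by size of change, and the 5 largest called in each direction of the dose steps. Other list members are named from the called members or as textbook members and were chosen after their values were seen, as was the promoter display. Members and lists were chosen with earlier results of these data known. Alternatives were the filter, normalization, arrays fitted, variance prior, array weights, replicate block, beta-actin covariate, threshold, gene means and leaving out each array.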

Additional observations from a re-analysis of the deposited data

Results flagged for a closer look

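Among 338 groups of 5 arrays (169 named genes at 60 mg/kg and vehicle), 33 had 1 array far from the other 4 by Dixon's criterion, and chance flags about 1 in 20 groups, here 16.9. No cause was tested for any of them.

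Vehicle replicate 5 was the array apart for 12 genes. It was low for Mup5 (3.05, others 7.32 to 8.24), Cyp2c11 (9.37, others 11.23 to 11.54), Sult1e1 (9.56), Igf1 (10.94), Hspa4l (1.63), Hfe (5.57), Stat2 (6.25), Psmb8 (5.87, others 7.06 to 7.44) and Ccl2 (1.497). It was high for the protease inhibitor A2m (7.54, others 5.03 to 5.31), the bile acid-induced repressor Nr0b2 (7.31) and Nfe2 (2.08). From the other vehicle arrays it was shifted in the direction of the 60 mg/kg change for Mup5, Cyp2c11, Sult1e1, Igf1, Hspa4l, Psmb8, Nr0b2 and Nfe2. For Hfe, Stat2, Ccl2 and A2m it was shifted in the opposite direction.

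The other vehicle arrays apart were replicate 1 for Phlda3 (5.03), replicate 3 for Nkg7 (2.00), and replicate 4 for Inmt (7.198) and Spp1 (3.57).

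At 60 mg/kg, replicate 3 was low for the division genes Mki67 (3.76), Ccna2 (3.96) and Cdca3 (4.38) and high for Slc1a2 (3.17). Replicate 1 was high for Dhrs7l1 (4.11), Cd36 (7.10), Stab1 (4.48) and Gucy2c (2.50). Replicate 2 was low for Gstt3 (9.43) and high for Pnpla3 (4.77), Abcc2 (7.72), Hao2 (10.12) and Lyz2 (7.18). Replicate 4 was low for Tfrc (8.49), Nfe2 (1.29), Cxcl9 (3.32) and Psmb1 (8.54).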

How the results depend on the processing

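The 1400 calls at 60 mg/kg became 734 when only the compared arrays were fitted, 634 with the threshold on the adjusted p lowered to 0.01, and 968 to 1523 when single arrays were left out. The other settings gave 1145 (genes, on gene means) to 1748 (bright probe sets only). No probe set of the response difference was called under any setting except without DMPT 60 mg/kg replicate 1, where 3 were lower, Gosr1, Rps27l and Nsmce3 (range over arrays left out 0 to 3). This includes the setting without 5 DMPT arrays of narrow spread, added after the data were seen, as were the recount of list members and the left-out arrays for each called member. The 33 calls of the step from 20 to 60 mg/kg became 5 with only the compared arrays, and 10 (without 60 mg/kg replicate 1) to 53 (without 60 mg/kg replicate 2) with single arrays left out; the counts were 18, 21, 17 and 20 without 60 mg/kg replicates 4 and 5 and 20 mg/kg replicates 4 and 5. The 260 calls of the step from 60 to 120 mg/kg became 75 with only the compared arrays, and 150 (without 120 mg/kg replicate 1) to 307 when single arrays were left out, with 154 without 60 mg/kg replicate 3. The causes of these shifts were not tested. NRF2 targets called higher numbered 16 to 20 over all settings, glutathione S-transferases 8 to 13, cholesterol genes 4 to 13, male-biased genes called lower 3 to 9 and stellate cell genes called lower 4 to 13.

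Titles number the replicates 1 to 5 in each group. Same-numbered arrays at 60 mg/kg and vehicle had correlations of deviations of 0.13, −0.02, −0.31, −0.13 and 0.27. Replicates 1 and 5 at 60 mg/kg correlated best with the vehicle array of their own number, and the others did not. Whether the numbers pair the arrays was not tested. With the replicate block 1346 probe sets were called, 0 in the response difference, and 33 and 252 in the dose steps. Pairing by number leaves the beta-actin difference at −0.15 by construction. Its two-sided exact p was 0.438 by sign changes of the paired differences, against 0.246 by the unpaired permutation.

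Over named genes and settings, 214 calls were lost, 84 were gained and 10 changes turned in sign, all in uncalled genes. With single arrays left out, RT1-Bb ran from −0.26 (without 60 mg/kg replicate 3) to 0.038 (without vehicle replicate 5) and was 0.017 as a gene mean. Cd74 ran from −0.24 (without 60 mg/kg replicate 3) to 0.058 (without replicate 4), S100a9 from −0.048 (without 60 mg/kg replicate 3) to 0.22 (without replicate 5), and Fcgr3a from −0.22 (without 60 mg/kg replicate 1) to 0.090 (without replicate 4).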

Other observations

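The NRF2 targets called higher shared an order among the treated arrays, seen after the values were inspected. In 13 of the 17 the highest values at 60 mg/kg were those of replicates 1 and 5 (76.5%): Abcc3, Akr7a3, Ephx1, Gclm, Gpx2, Gsr, Gsta3, Gstm1, Gstp1, Nqo1, Ptgr1, Txn1 and Ugdh. Among all 430 genes called higher this pair was the highest in 51 (11.9%), and among all 14217 named genes in 1199 (8.43%). These genes were read on the same arrays and are not independent, and no test was made. Akr1b8, which was not called, had the same highest pair, with 5.04 and 4.10, against 3.33 to 3.61 in the other treated arrays.

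The imprinted transcript H19 read 7.48, 6.77, 7.73, 9.17 and 9.15 at 60 mg/kg, against 4.78, 5.39, 6.63, 5.11 and 8.89 in vehicle. Its change of 1.90 ± 0.68 was not called (limma, adjusted p = 0.117), vehicle replicate 5 again being the high vehicle array, and without that array it was called (2.58, adjusted p = 0.0129).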
